A study of Sus scrofa with 15 samples.

Results

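The genes described here encode the subunits, activators and assembly chaperones of the proteasome, taken as every gene whose symbol is PSMA, PSMB, PSMC, PSMD or PSME followed by a number. There were 43 of them among the 26654 genes of the table, and 41 had enough counts to be tested. PSMA8, a core subunit of testis, had 1 count in normal 1 and 0 in the other 14 libraries. PSMB11, a catalytic subunit of the thymus, had 1 count in normal 1 and 2 in implantation B 1. The study sequenced polyadenylated RNA from the corpus cavernosum of pig penis, the spongy vascular tissue that fills during erection, in 5 groups of 3 libraries. The groups are called normal, defect, implantation A, ECs+ implantation and implantation B, and the labels give no strain, age, agent or time. Neither what ECs stands for nor how implantation A differs from implantation B is spelled out. By its design the study compared normal, defect and implantation A pairwise, and ECs+ implantation with implantation B.

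The proteasome is the protease that breaks down proteins tagged with ubiquitin and supplies most peptides shown on MHC class I molecules. Its core is a barrel of alpha and beta rings, and the catalytic beta subunits PSMB5, PSMB6 and PSMB7 can be exchanged for the interferon-inducible PSMB8, PSMB9 and PSMB10, giving the immunoproteasome. A regulatory particle of a base, with ATPases that unfold the substrate, and a lid, which removes ubiquitin, or an activator such as the ring of PSME1 and PSME2, opens the core. PSMB8, PSMB9, PSMB10, PSME1 and PSME2 are called the 5 inducible genes below. PSMB8 and PSMB9 lie on either side of TAP1 in the MHC region (on Sscrofa11.1, chromosome 7, 25058456 to 25061666 and 25072133 to 25077508), and PSME2 and PSME1 lie on either side of EMC9 farther along that chromosome (75154570 to 75157871 and 75161830 to 75164531). PSMB10 lies on chromosome 6 (28544910 to 28547609). Their constitutive counterparts PSMB5, PSMB6 and PSMB7 lie on chromosome 7 (76014576 to 76021922), chromosome 12 (52096009 to 52098164) and chromosome 1 (265172257 to 265235389).

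Total gene counts ran from 17234169 to 19644793 in 13 libraries, which held 34303 to 55496 counts of proteasome genes each. Defect 1 and defect 2 held 207769 and 250178 counts in all and 423 and 546 of proteasome genes. By library total alone, 1 count there equals 4.81 and 3.997 CPM (counts scaled to a common library total). The CPM of single genes below are also scaled by TMM factors, 1.03 and 0.998 in these libraries. Defect 3 had 17703564 counts, and fold changes of the defect group rest mostly on it. Whether the 3 libraries of a group are from different animals is not in the labels, so a p-value here measures library-to-library spread that may be technical. Markers of endothelium and smooth muscle, the tissue's main cells, were present in every group, while the summed skeletal muscle markers reached at most 7.11 CPM. The groups were not alike in other markers. Mean sums of fibroblast markers ran from 16482 CPM in normal to 135586 CPM in defect. Those of epithelial markers ran from 17.9 CPM in ECs+ implantation to 2213 CPM in defect, with 896 CPM in normal. In bulk tissue, fewer cells of a type and less RNA per cell cannot be told apart.

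Proteasome genes made up 0.294 to 0.296% of all counts in ECs+ implantation and 0.199 to 0.203% in implantation B, with normal (0.234 to 0.239%), implantation A (0.222 to 0.226%) and defect (0.204 to 0.218%) between. In TPM, the deposited values that also divide by transcript length, the spread was smaller. The 43 genes summed to 3552 ± 14.5 TPM in ECs+ implantation, 3426 ± 33.2 in implantation A, 3290 ± 19.7 in normal, 3266 ± 86.7 in defect and 3184 ± 40.2 in implantation B (SD, n = 3). On both scales ECs+ implantation was highest and implantation B lowest. Per length, PSMA7, an alpha ring subunit, was the most abundant member in normal tissue at 260.9 ± 7.95 TPM, followed by PSME1 at 189 ± 1.09 TPM and PSMC5, a base ATPase, at 187 ± 7.85 TPM. PSMD6, a lid subunit, was the least abundant of the 41 at 10.03 ± 0.708 TPM (SD, n = 3). Among the catalytic genes of normal tissue, PSMB8 stood at 85.2 ± 3.13 TPM beside 59.1 ± 2.55 TPM for its counterpart PSMB5. PSMB9 and PSMB10 were below theirs, at 56.1 ± 0.794 TPM beside 133.6 ± 11.6 for PSMB6, and 71.6 ± 5.01 TPM beside 168 ± 5.70 for PSMB7.

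The comparison of ECs+ implantation with implantation B showed the clearest change in the inducible genes. PSMB8, the inducible subunit that replaces PSMB5, stood at 92.3, 93.1 and 91.3 CPM in the 3 ECs+ implantation libraries and at 37.1, 35.5 and 32.2 CPM in those of implantation B. The groups lay far apart, and the fitted level was 2.58-fold higher in ECs+ implantation, 1.37 ± 0.052 on the log2 scale (SE, edgeR adjusted p = 3.45e-29). PSMB9, the counterpart of PSMB6, stood at 37.8, 38.1 and 36.2 CPM against 18.6, 15.4 and 16.1 CPM. Again no library of one group reached the other, with a difference of 1.13 ± 0.077 on the log2 scale (SE, adjusted p = 6.9e-19). PSMB10, the counterpart of PSMB7, stood at 40.3, 37.1 and 38.1 CPM against 23.1, 22.8 and 25.3 CPM. Its change was smaller but without overlap, at 0.66 ± 0.069 on the log2 scale (SE, adjusted p = 2.71e-12). PSME1, the alpha chain of the inducible activator ring, stood at 172, 167 and 165 CPM against 77.3, 76.9 and 74.9 CPM. It rose 2.15-fold, 1.10 ± 0.038 on the log2 scale (SE, adjusted p = 3.65e-31). PSME1 shares 88 bases with EMC9, which had 3117 counts over the 15 libraries beside 22939 for PSME1. PSME2, its partner chain, stood at 70.1, 65.9 and 67.6 CPM against 45.1, 44.9 and 48.7 CPM. It rose less, by 0.52 ± 0.052 on the log2 scale (SE, adjusted p = 7.49e-13), and the log2 ratio of PSME1 to PSME2 within a library was 0.56 higher in ECs+ implantation by TPM, without overlap of the groups.

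**Figure D1:**
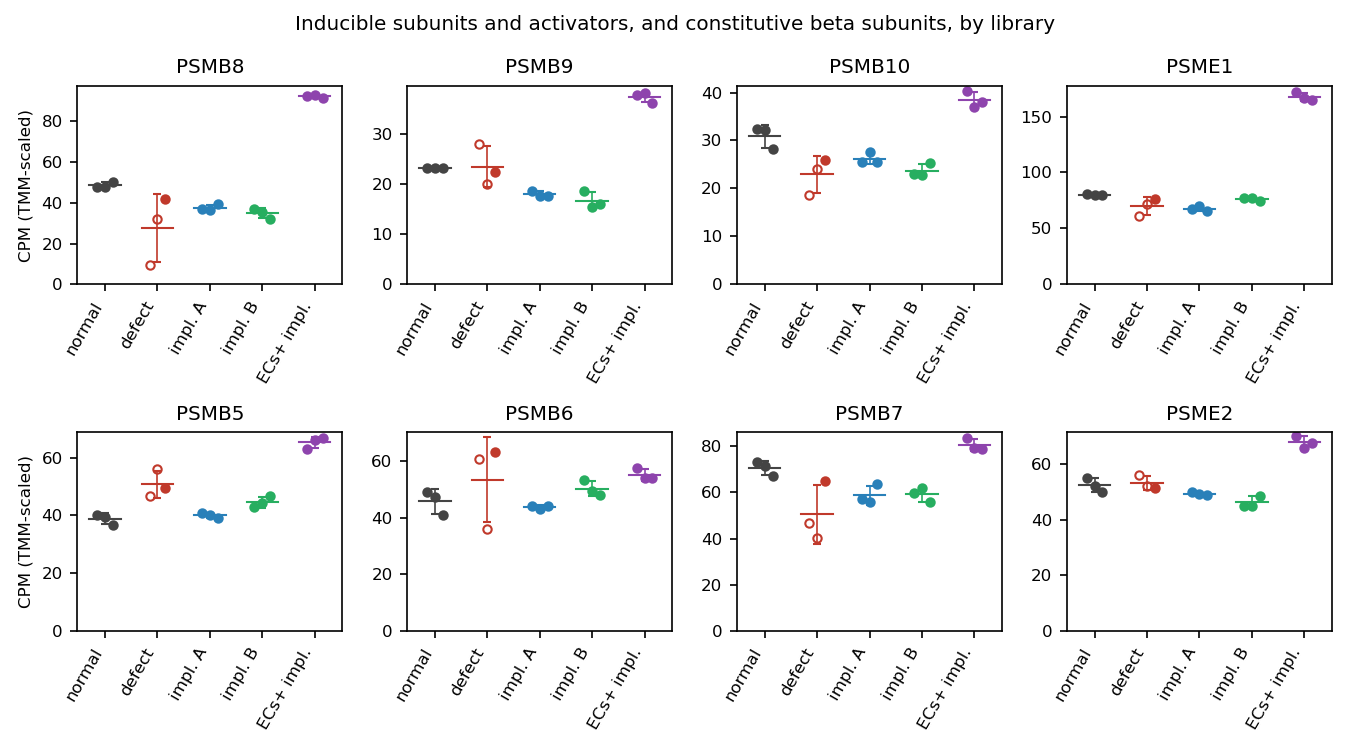
TMM-scaled CPM (y axes, linear, starting at 0) of the 5 inducible genes and the constitutive catalytic genes PSMB5, PSMB6 and PSMB7 in each of the 15 libraries; points are libraries, bars the mean ± SD of 3, and open circles the shallow libraries defect 1 and defect 2. PSMB8 lies between 91.3 and 93.1 in ECs+ implantation and at or below 50.3 in the other groups. PSMB6 spans 36.03 to 63.3 in defect and there overlaps every other group.

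All 5 inducible genes thus rose, 3 of them at least 2-fold (PSMB8, PSMB9 and PSME1). Among all 17204 genes tested in this comparison, 75.8% passed an adjusted p of 0.05, 37.8% higher and 38.1% lower, and 26.3% were called with a change of at least 2-fold, so a call by itself was common. Of the other 36 proteasome genes tested, 25 were called higher, 6 lower and 5 were not called, and 0 of them changed 2-fold. The median log2 fold change was 1.10 over the 5 inducible genes, 0.24 over the other 36 and 0.02 over all genes tested. The groups did not overlap in 38 of the 41 proteasome genes, beside 77.6% of all genes. Scaling by library size alone put the median of all genes at 0.26 and log2(TPM + 1) put it at -0.21. Relative to that median the 5 genes stood at 1.08 and 1.04, against 1.08 with TMM scaling, and all 5 were called higher under each of these scalings.

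The constitutive counterparts were unlike each other in this comparison. PSMB5, the subunit with chymotrypsin-like activity, stood at 63.1, 66.1 and 66.7 CPM in ECs+ implantation and 43.0, 44.2 and 46.6 CPM in implantation B, and rose by 0.52 ± 0.052 on the log2 scale (SE, adjusted p = 1.39e-12). PSMB7, which carries the trypsin-like activity, stood at 83.6, 79.3 and 78.9 CPM against 59.6, 61.9 and 55.6 CPM, a rise of 0.42 ± 0.048 (SE, adjusted p = 6.6e-11). Both were without overlap between the groups. PSMB6, with caspase-like activity, was at 57.6, 54.1 and 53.8 CPM against 53.1, 49.4 and 48.0 CPM. Its difference of 0.10 ± 0.054 was not called (SE, adjusted p = 0.0761), although the groups did not overlap. With TMM scaling PSMB6 was called higher without implantation B 1 (0.14, adjusted p = 0.0452) or ECs+ implantation 2 (0.12, adjusted p = 0.0461). On log2(TPM + 1) it had the other sign, at -0.14, and was called lower. By TPM the groups did not overlap either, at 124 to 132 in ECs+ implantation and 134.7 to 148 in implantation B.

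Within a library the ratio of an inducible subunit to its counterpart does not depend on library scaling. PSMB8 over PSMB5 by TPM was 1.64 ± 0.0544 in ECs+ implantation and 0.909 ± 0.101 in implantation B. For PSMB9 over PSMB6 the ratios were 0.541 ± 0.0241 and 0.274 ± 0.0166. PSMB10 over PSMB7 gave 0.464 ± 0.00856 and 0.392 ± 0.0439 (SD, n = 3). None of the 3 pairs overlapped between these groups, and the difference was widest for PSMB9 over PSMB6 (0.98 on the log2 TPM scale) and narrowest for PSMB10 over PSMB7 (0.25). The mean log2 CPM of the 3 inducible subunits minus that of the 3 counterparts was -0.38 ± 0.0103 in ECs+ implantation and -1.09 ± 0.0566 in implantation B (SD, n = 3), a difference of 0.71. The inducible subunits supplied 42.4 to 43.0% of the TPM of the 6 catalytic genes in ECs+ implantation and 29.7 to 30.9% in implantation B.

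**Figure D2:**
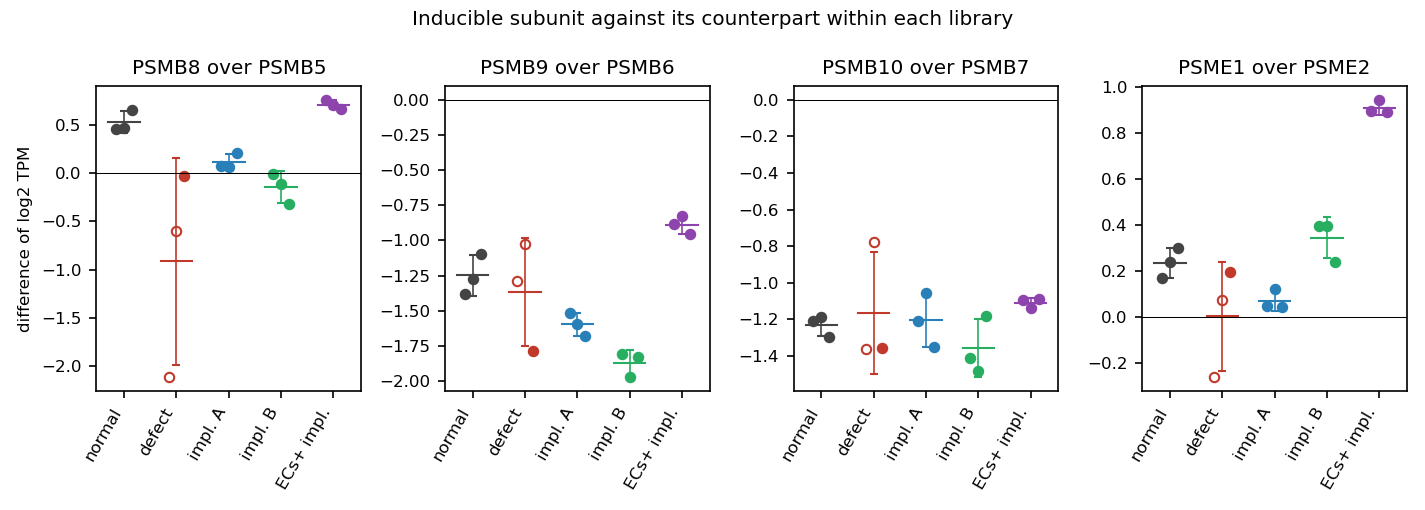
Log2 TPM of PSMB8, PSMB9 and PSMB10 minus that of PSMB5, PSMB6 and PSMB7, and of PSME1 minus PSME2, within each library (y axes, log2 scale, each panel with its own range); points are libraries, bars the mean ± SD of 3, open circles the shallow libraries defect 1 and defect 2, and the line at 0 equal TPM. ECs+ implantation is highest in the panels of PSMB8, PSMB9 and PSME1, and in the PSMB10 panel it overlaps other groups.

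Of the other core genes, 6 of 7 alpha ring genes rose in ECs+ implantation and 1 fell. PSMA3 stood at 93.8, 94.4 and 93.4 CPM against 60.7, 62.1 and 55.7 CPM and rose by 0.62 ± 0.046 (SE, adjusted p = 1.94e-17). PSMA6, at 66.0, 70.1 and 67.4 CPM against 42.0, 43.2 and 46.4 CPM, rose by 0.59 ± 0.053 (SE, adjusted p = 1.62e-14). The exception was PSMA7, at 86.5, 80.9 and 78.6 CPM against 98.1, 98.9 and 102 CPM, which fell by 0.32 on the log2 scale (SE 0.042, adjusted p = 3.73e-09). PSMA7 shares 132 bases with LSM14B. The counting is not stated to use strand, so reads where 2 genes overlap cannot be told apart, which also holds for PSMA3, PSMC1, PSMC5, PSMD1, PSMD6, PSMD10, PSMD14 and PSME1. With library size alone PSMA7 was no longer called (-0.08, adjusted p = 0.0794). In the constitutive beta ring 5 of 7 genes rose, and PSMB3, a structural subunit, was not called (-0.09, adjusted p = 0.277), like PSMB6. On log2(TPM + 1) both PSMB3 and PSMB6 were called lower.

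In the regulatory particle the base ATPases rose together, 6 of 6, with a median of 0.32. PSMC6 led them at 74.7, 87.9 and 81.6 CPM against 46.2, 47.1 and 47.0 CPM, a rise of 0.77 ± 0.053 (SE, adjusted p = 3.01e-18). PSMC3 was the next, at 184, 169.8 and 173 CPM against 103, 105 and 112 CPM, a rise of 0.68 ± 0.037 (SE, adjusted p = 2.15e-22). Neither group of libraries reached the other in these 2 genes. The large scaffold subunits of the base moved the other way, PSMD1 by -0.25 ± 0.059 and PSMD2 by -0.22 ± 0.034 (SE, adjusted p = 0.000138 and 1.8e-07), while PSMD4, a ubiquitin receptor of the base, rose by 0.25. Of 8 lid genes 6 rose, 1 fell (PSMD12, -0.22, adjusted p = 0.00043) and 1 was not called, PSMD14, the deubiquitinase of the lid (0.00 ± 0.084, SE, adjusted p = 0.984). Among the 3 base assembly chaperones PSMD9 rose by 0.59, and PSMD5 (0.04) and PSMD10 (0.06) were not called.

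The activators split by kind. PSME3, which forms the nuclear activator ring, stood at 53.3, 48.7 and 58.7 CPM in ECs+ implantation and 71.9, 67.6 and 71.0 CPM in implantation B, and fell by 0.42 on the log2 scale (SE 0.053, adjusted p = 1e-09). PSME4, the single-chain nuclear activator, stood at 63.5, 54.7 and 61.8 CPM against 66.4, 68.5 and 70.2 CPM and fell by 0.22 (SE 0.051, adjusted p = 0.000121). The inducible pair was thus higher and the other 2 lower, with no overlap in any of the 4. With library size alone PSME4 (0.01), PSMD2 (0.02) and PSMD12 (0.02) changed sign and were not called, PSMD1 was not called either (-0.02), and the split of the 41 genes was 34 higher and 1 lower. Of all genes, library size alone called 8684 higher and 4894 lower. On log2(TPM + 1) the split was 18 higher and 13 lower, beside 3890 and 7636 of all genes. There 4 alpha ring genes rose and 1 fell, 3 base ATPases rose and 0 fell, and 1 lid gene rose and 5 fell, so the direction of the lid depended on the scale.

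**Figure D3:**
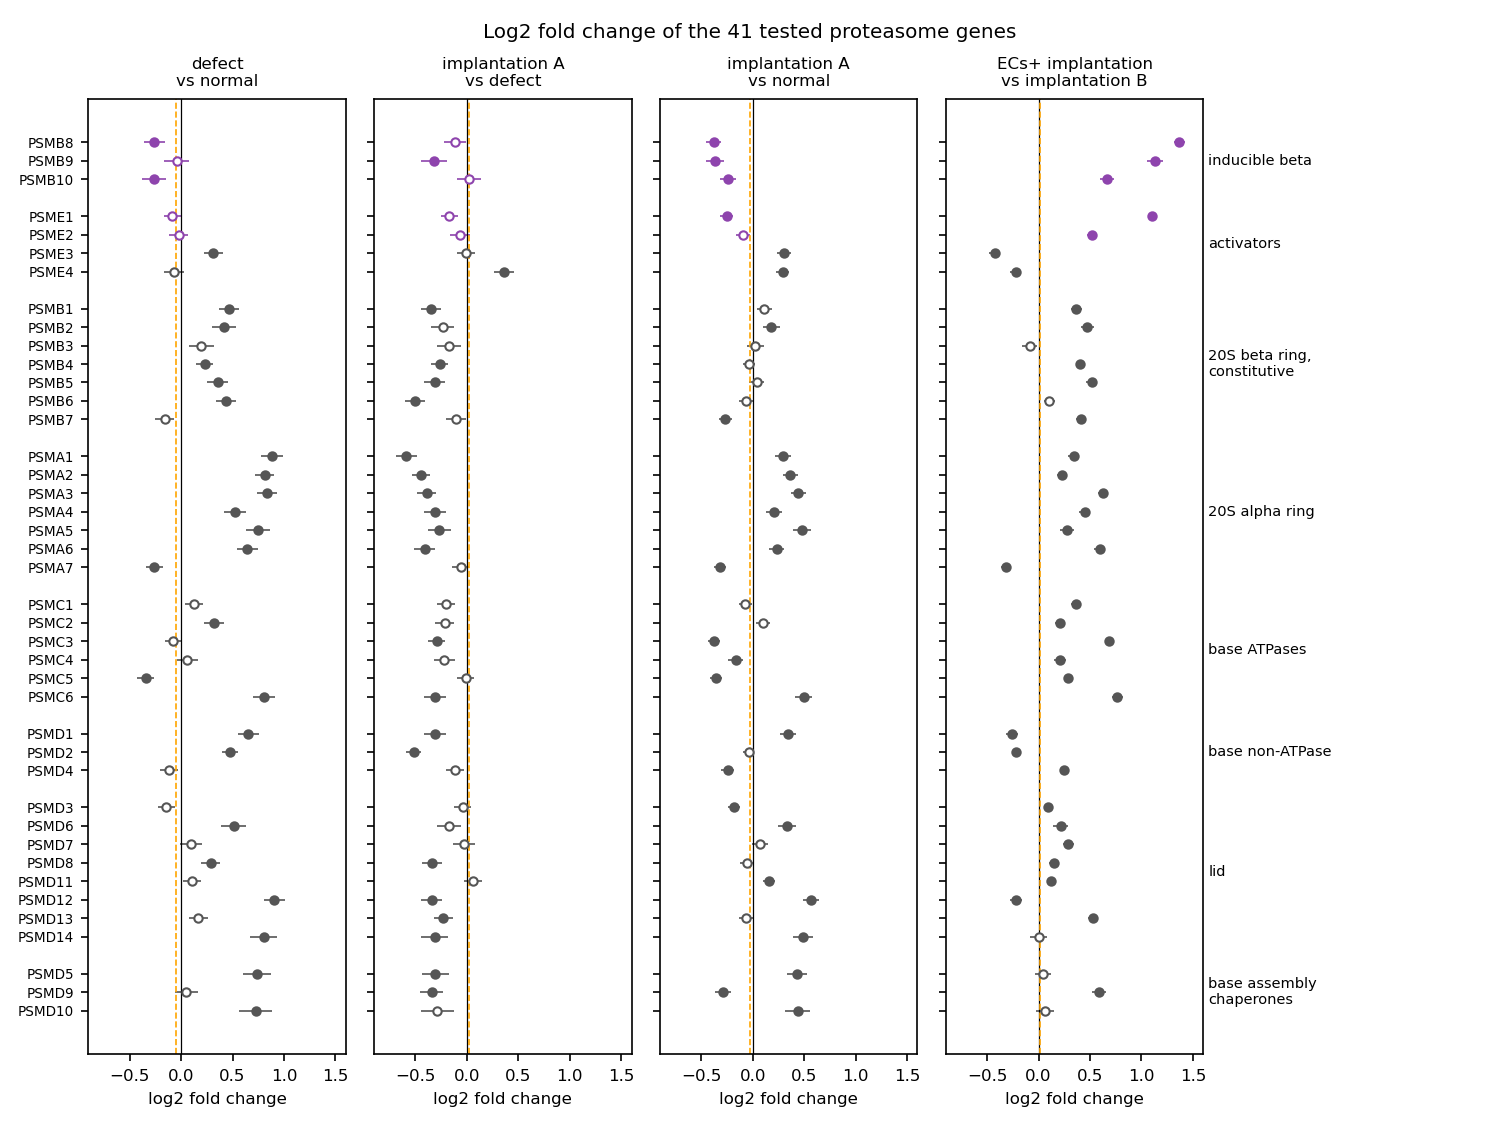
Log2 fold changes with SE (x axes) of the 41 tested proteasome genes in the 4 comparisons, grouped by role; filled points passed an adjusted p of 0.05, open points did not, purple marks the 5 inducible genes, and the dashed line is the median of all genes tested. In ECs+ implantation vs implantation B the 5 purple points lie at 0.52 to 1.37, and in implantation A vs normal at -0.38 to -0.09.

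Genes that control or work beside the inducible subunits did not all follow them in this comparison. Of 10 tested genes of interferon control 5 rose, 3 fell and 2 were not called. NLRC5, the transactivator of MHC class I genes, stood at 58.5 ± 2.52 CPM in ECs+ implantation and 28.1 ± 1.94 CPM in implantation B (SD, n = 3), a rise of 1.02 on the log2 scale (adjusted p = 8.23e-21). IRF1, an interferon-induced transcription factor, rose by 0.48 and SOCS1, an inhibitor of interferon signalling, fell by 0.85 on the log2 scale. IFNG itself had 1 count in the 3 ECs+ implantation libraries and 0 in implantation B and was not tested. Of 8 peptide loading genes 4 rose and 4 fell. The risers were B2M, the light chain of MHC class I, at 3551 ± 59.3 against 831 ± 5.66 CPM (SD, n = 3; 2.06 on the log2 scale, adjusted p = 8.59e-57), the peptide transporters TAP2 (0.70) and TAP1 (0.46), and the peptidase ERAP1 (0.35). The general chaperones PDIA3 (-0.31), CANX (-0.27) and CALR (-0.18) and the loading factor TAPBP (-0.12) fell. With library size alone CALR (0.05) and TAPBP (0.12) had the other sign, and on log2(TPM + 1) ERAP1 was not called (0.08, adjusted p = 0.187). NLRC5, IRF1, B2M, TAP1 and TAP2 were called higher under TMM, library size alone, RLE factors and log2(TPM + 1).

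The splits of the remaining lists moved with the scaling. Of 7 genes for core assembly and its inhibitor 5 rose and 1 fell, led by the assembly chaperone PSMG3 (1.36, adjusted p = 2.47e-19), while POMP, the maturation factor of the core, was not called (0.07, adjusted p = 0.277). Of 12 proteasome-bound partners 5 rose and 4 fell, and of 8 genes in transcriptional control of the proteasome 3 rose and 3 fell. NFE2L1, the activator of proteasome genes when the enzyme is impaired, was called lower (-0.08), but was at 0.15 with library size alone. Of 6 ubiquitin and E1 genes 4 rose and 2 fell, with RPS27A, a ubiquitin and ribosomal fusion gene, at 1.43. On log2(TPM + 1) these lists gave 2 higher and 2 lower, 2 and 8, 1 and 5, and 2 and 4, in the same order, while PSMG3 stood at 1.15 and RPS27A at 1.27.

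Cell type markers also differed between these 2 groups. Endothelial markers rose in 6 of 7 genes and summed to 3199 to 3260 CPM of library size in ECs+ implantation against 1492 to 1503 in implantation B. Fibroblast markers fell in 6 of 6 genes and summed to 16978 to 17036 CPM against 122203 to 123871 CPM, though with library size alone 5 were lower and 1 higher. Proliferation markers fell in 5 of 7 genes and rose in 1. Smooth muscle markers rose in 5 of 6 genes and fell in 1. Leukocyte markers rose in 1 of 7 genes and fell in 5, with sums of 305 to 310.2 against 231 to 241 CPM. The riser was LAPTM5, at 225 ± 2.82 against 117 ± 2.73 CPM (SD, n = 3). Macrophage markers fell in 8 of 9 genes (384 to 393 against 871 to 879.6 CPM), and T and NK cell markers in 5 of 5 (11.7 to 12.3 against 18.4 to 21.9 CPM). Epithelial markers summed to 16.4 to 19.9 CPM in ECs+ implantation and 1691 to 1740.4 in implantation B, where KRT5 stood at 1646 ± 24.3 CPM (SD, n = 3). In ECs+ implantation KRT15 was at 0 and KRT5 had 4 counts over 3 libraries. The part of these cell type differences in the rise of the inducible genes was not tested.

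In the second comparison, of defect with normal, the alpha ring genes were higher in defect, 6 of 7, and the inducible genes were not, with 0 of 5 called higher. PSMA1 stood at 65.4, 32.0 and 47.8 CPM in the 3 defect libraries and 24.3, 27.1 and 26.2 CPM in normal, higher by 0.88 ± 0.105 on the log2 scale (SE, adjusted p = 5.59e-12). PSMA3 stood at 88.8, 44.0 and 71.0 CPM against 37.2, 41.6 and 39.7 CPM and rose by 0.83 ± 0.094 (SE, adjusted p = 6.02e-13). PSMA2, at 70.1, 52.0 and 69.8 CPM against 38.6, 39.5 and 39.7 CPM, rose by 0.81 ± 0.094 (SE, adjusted p = 1.34e-12). The defect libraries scattered but none reached a normal library in these 3 genes. PSMD12, a lid scaffold subunit, stood at 42.0, 36.03 and 54.3 CPM against 25.1, 27.8 and 32.0 CPM and rose by 0.91 ± 0.104 (SE, adjusted p = 1.32e-12). The alpha ring gene that fell was again PSMA7, at 70.1, 92.1 and 102 CPM against 123, 122 and 115 CPM (-0.26 ± 0.083, SE, adjusted p = 0.00439). PSMC5, a base ATPase whose gene shares 685 bases with FTSJ3, fell by 0.34 (SE 0.083, adjusted p = 0.000241), from 123, 134 and 129.7 CPM in normal to 56.1, 104 and 104 CPM.

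Over the 41 tested members 22 were called higher in defect, 4 lower and 15 were not called. Of all 17855 genes tested with normal, defect and implantation A, 63.9% were called in this comparison, 32.0% higher and 31.9% lower. The median log2 fold change was 0.29 over the members and -0.05 over all genes, and 18 members did not overlap between the groups, beside 50.7% of all genes. These counts moved with the scaling. With library size alone, which put the median of all genes at -0.41, 10 members were higher and 18 lower. RLE factors gave 20 and 9, and log2(TPM + 1) gave 12 and 7. Over all genes library size alone, RLE factors and log2(TPM + 1) called 3457, 4973 and 2519 higher and 8889, 6819 and 4228 lower. Relative to the median of all genes the members' median was 0.34, 0.34 and 0.27 higher in these 3, beside 0.33 with TMM. The alpha ring had 6 positive genes and PSMA7 negative under each of them, with 5 or 6 called higher and 1 lower. Without both shallow defect libraries 23 members were higher and 3 lower. Without defect 3, where only the shallow libraries stood for the group, 2 were higher and 3 lower, beside 1391 and 2130 of all genes. PSMA1 (0.88, adjusted p = 0.0655), PSMA2 (0.62, adjusted p = 0.141), PSMA3 (0.71, adjusted p = 0.08), PSMD12 (0.45, adjusted p = 0.458) and PSMA7 (-0.55, adjusted p = 0.0613) were not called there.

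Of the inducible genes 2 were called lower in defect, with small changes, and 3 were not called. PSMB8 stood at 9.34, 32.0 and 42.0 CPM in defect, from 2, 8 and 627 counts, and at 48.0, 47.6 and 50.3 CPM in normal. Every defect library lay below every normal one, with the lowest value resting on 2 counts, and the log2 fold change was -0.26 ± 0.105 (SE, adjusted p = 0.0254). That call was lost with DESeq2 (-0.49, adjusted p = 0.0741) and with voom and quality weights (-0.59, adjusted p = 0.166). PSMB10 stood at 18.7, 24.0 and 26.0 CPM against 32.4, 32.2 and 28.2 CPM, -0.26 ± 0.118 (SE, adjusted p = 0.0458). It was not called with DESeq2 (adjusted p = 0.0617), with voom and quality weights (adjusted p = 0.399), without any 1 of the defect libraries (adjusted p = 0.0593, 0.0516 and 0.467 without defect 1, 2 and 3) or without normal 1 or normal 2 (0.11 and 0.124). PSMB9 was at 28.0, 20.02 and 22.5 CPM against 23.2, 23.3 and 23.3 CPM and was not called (-0.04 ± 0.125, SE, adjusted p = 0.774). Neither were PSME1, at 60.7, 72.1 and 76.5 CPM against 80.5, 80.1 and 80.0 CPM (-0.08 ± 0.086, SE, adjusted p = 0.395), and PSME2, at 56.1, 52.0 and 51.4 CPM against 55.0, 52.3 and 50.01 CPM (-0.02 ± 0.095, SE, adjusted p = 0.84).

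The counterparts PSMB5 and PSMB6 rose in defect while PSMB7 did not. PSMB5 stood at 46.7, 56.0 and 49.5 CPM against 40.3, 39.6 and 36.7 CPM (0.35 ± 0.099, SE, adjusted p = 0.00116). PSMB6 stood at 60.7, 36.03 and 63.3 CPM against 49.2, 47.1 and 40.8 CPM, overlapping, with 0.44 ± 0.097 (SE, adjusted p = 4.47e-05). PSMB7 stood at 46.7, 40.0 and 64.8 CPM against 73.0, 71.3 and 67.3 CPM, below normal in each library but not called (-0.16 ± 0.093, SE, adjusted p = 0.123) unless normal 3 was left out (-0.18, adjusted p = 0.0395). Without defect 3, PSMB5 (0.41, adjusted p = 0.401) and PSMB6 (0.05, adjusted p = 0.918) were not called. With library size alone PSMB5 was at -0.01 and PSMB6 at 0.08 (adjusted p = 0.446), and with DESeq2 neither was called (adjusted p = 0.158 and 0.0872). PSME3 rose by 0.31 ± 0.093 (SE, adjusted p = 0.00232), with defect libraries at 42.0, 84.1 and 65.9 CPM on either side of normal at 51.9, 54.6 and 52.5 CPM. It was not called with DESeq2 or without defect 3 (adjusted p = 0.182 and 0.535). PSME4 was at 65.4, 28.0 and 65.3 CPM against 65.1, 63.9 and 71.9 CPM (-0.07, adjusted p = 0.523). By these values the log2 ratio of inducible to constitutive subunits was -1.13 ± 0.407 in defect and -0.61 ± 0.0684 in normal (SD, n = 3), without overlap. Without both shallow libraries the difference was -0.40 in place of -0.52, and without defect 1 it was -0.29. By pair, only PSMB8 over PSMB5 was without overlap (-1.45), and its value in defect 1 rests on 2 counts of PSMB8. PSMB9 over PSMB6 (-0.18) and PSMB10 over PSMB7 (0.07) overlapped between defect and normal.

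**Figure D4:**
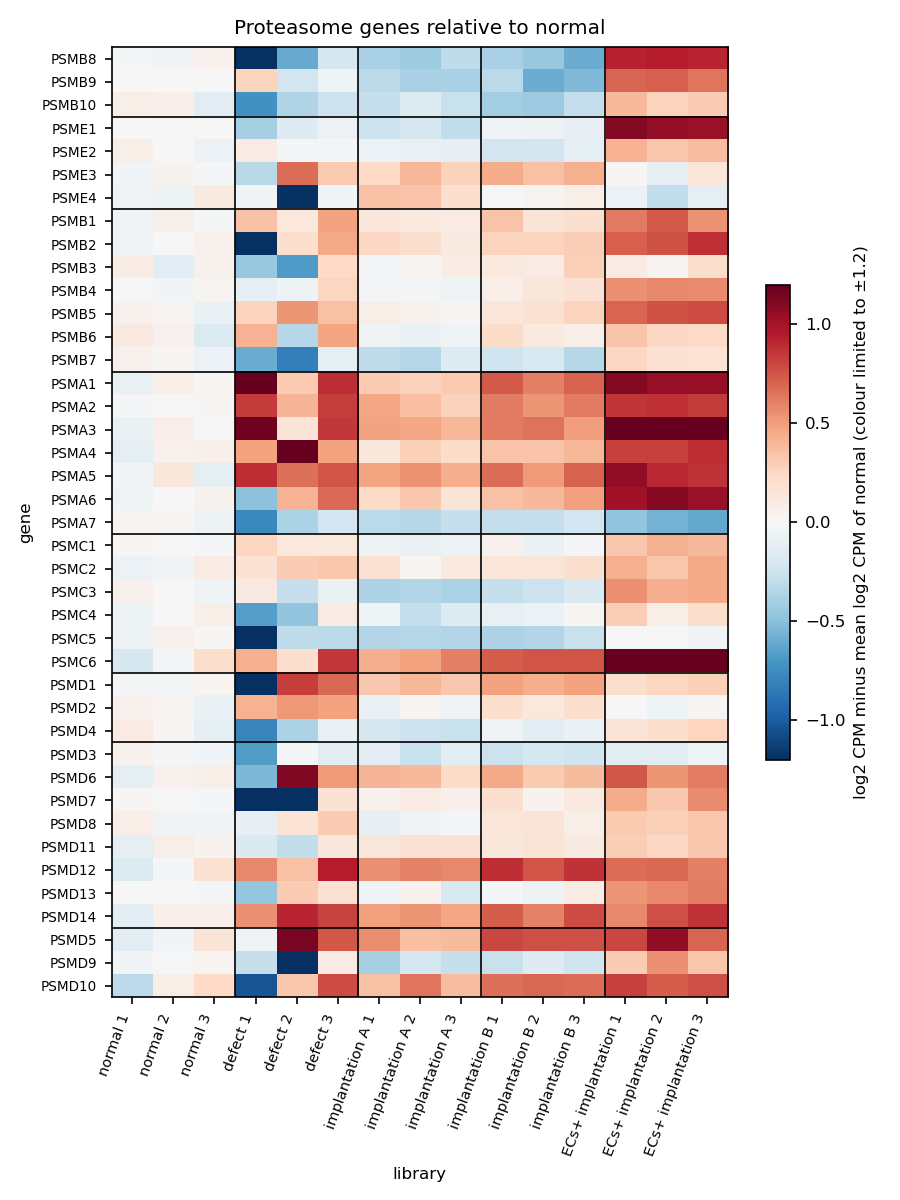
Log2 CPM of each of the 41 tested proteasome genes (rows, grouped by role) in each of the 15 libraries (columns), minus that gene's mean log2 CPM in normal; red is higher, blue lower, and the colour stops at ±1.2. The inducible genes PSMB8, PSMB9, PSMB10, PSME1 and PSME2 are at their reddest in ECs+ implantation, the alpha ring genes other than PSMA7 are red in most libraries outside normal, and the shallow libraries defect 1 and defect 2 are the most uneven columns.

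Interferon control genes other than the inducible subunits were mostly higher in defect than in normal. Of 10 tested genes 8 rose and 1 fell, with JAK2, an interferon receptor kinase, at 1.78 (adjusted p = 3.31e-26). NLRC5 was the one that fell, by 0.83 on the log2 scale (adjusted p = 5.29e-11). With library size alone the split was 6 and 2, and on log2(TPM + 1) 4 and 2. Peptide loading genes rose in 6 of 8 (4 higher and 3 lower with library size alone), most in PDIA3 (1.39), CALR (1.14) and CANX (1.04), and B2M was not called (0.15, adjusted p = 0.0979). Leukocyte markers rose in 7 of 7 genes, macrophage markers in 9 of 9 and T and NK cell markers in 4 of 5, and their sums were 296 to 356, 785 to 909 and 16.0 to 33.7 CPM in defect against 247 to 249, 493 to 519 and 20.5 to 23.2 CPM in normal. Proliferation markers rose in 7 of 7 genes and fibroblast markers in 6 of 6. Endothelial markers fell in 5 of 7 genes and rose in 1, smooth muscle markers fell in 3 of 6 and rose in 1, and epithelial markers rose in 3 of 5 and fell in 2. With the 2 shallow libraries alone for defect, 2 of 7 leukocyte and 3 of 9 macrophage markers were called. The part of these in the proteasome changes was not tested.

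Implantation A was compared with defect and with normal, and these 3 comparisons share libraries. Against defect, 21 members were lower, 1 was higher and 19 were not called, beside 41.8% of all genes called, 20.4% higher and 21.4% lower. PSMD2 stood at 133, 141 and 135 CPM in implantation A and 187, 200.2 and 195 CPM in defect, and fell by 0.52 on the log2 scale (SE 0.077, adjusted p = 1.75e-08). PSMA1 fell by 0.59 (SE 0.104, adjusted p = 1.59e-06), PSMA2 by 0.45 (SE 0.092, adjusted p = 3.32e-05) and PSMA3 by 0.39 (SE 0.093, adjusted p = 0.000277), each with overlap of the libraries and not called without defect 3 (adjusted p = 0.352, 0.678 and 0.658). PSMA2 (-0.14, adjusted p = 0.157) and PSMA3 (-0.09, adjusted p = 0.401) were not called with library size alone either. The 1 gene that rose was PSME4, at 85.1, 84.5 and 76.5 CPM in implantation A, above every defect library (0.36 ± 0.093, SE, adjusted p = 0.00095). It was not called without defect 3 (0.86, adjusted p = 0.0637). With voom and quality weights and on log2(TPM + 1), PSMD2 was called and PSMA1, PSMA2, PSMA3 and PSME4 were not. The split depended on the scaling, since library size alone, with a median of all genes of 0.33, gave 11 members higher and 2 lower, RLE factors 1 and 15, and log2(TPM + 1) 4 and 1. Without defect 3 it was 1 and 1, and without both shallow libraries 1 and 26. Relative to all genes the members' median stayed between -0.37 and -0.27 under these settings. Over all genes, library size alone called 7930 higher and 1761 lower, and the fit without defect 3 called 935 and 520. RLE factors called 4443 and 3368, and log2(TPM + 1) 3686 and 924. Cell type markers differed in this comparison too. Leukocyte markers fell in 7 of 7 genes, macrophage markers in 9 of 9, T and NK cell markers in 4 of 5, fibroblast markers in 6 of 6 and proliferation markers in 7 of 7. Without defect 3 these counts were 2, 7, 0, 6 and 1. Endothelial markers fell in 4 of 7 genes (3 higher and 3 lower with library size alone). Smooth muscle markers rose in 6 of 6 genes, and epithelial markers rose in 4 of 5 and fell in 1. The part of these in the proteasome changes was not tested.

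Of the inducible genes 1 was called against defect, PSMB9, at 18.7, 17.7 and 17.7 CPM in implantation A (-0.32 ± 0.126, SE, adjusted p = 0.0319). This call was lost with library size alone (-0.02, adjusted p = 0.952), RLE factors (adjusted p = 0.0786) and DESeq2 (-0.28, adjusted p = 0.337), in a fit of these 2 groups alone (adjusted p = 0.0693), without implantation A 2 or 3 (adjusted p = 0.0831 and 0.0842) and without defect 3 (adjusted p = 0.684). PSMB8, at 37.1, 36.2 and 39.2 CPM, lay between the 2 highest defect libraries (-0.12, adjusted p = 0.39). PSMB10, at 25.4, 27.6 and 25.6 CPM (0.02, adjusted p = 0.909), PSME1, at 67.0, 69.8 and 65.4 CPM (-0.17, adjusted p = 0.108), and PSME2, at 49.8, 49.3 and 48.8 CPM (-0.07, adjusted p = 0.602), were not called. PSMB5, at 40.8, 40.1 and 39.2 CPM, fell by 0.31 (SE 0.098, adjusted p = 0.00638), and PSMB6, at 44.2, 43.0 and 44.1 CPM, fell by 0.51 (SE 0.097, adjusted p = 8.59e-06), though neither was called without defect 3 (adjusted p = 0.558 and 0.848). Neither was called with library size alone (PSMB5 -0.01, adjusted p = 0.971, and PSMB6 -0.20, adjusted p = 0.0583), and PSMB5 was not called with DESeq2 (adjusted p = 0.19). PSMB7, at 57.2, 55.7 and 63.4 CPM, was not called (-0.11, adjusted p = 0.379), nor was PSME3, at 62.4, 69.8 and 64.3 CPM (-0.01, adjusted p = 0.955). The log2 ratio of inducible to constitutive subunits was 0.29 higher in implantation A than in defect, but 0.06 without defect 1 and 0.46 without defect 2. The groups overlapped in this ratio. By pair, PSMB8 over PSMB5 was higher by 1.03 without overlap. PSMB9 over PSMB6 (-0.13) and PSMB10 over PSMB7 (-0.04) went the other way, with overlap.

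Against normal, where every library was deep, implantation A had lower inducible genes, 4 of 5, beside 64.5% of all genes called, 32.2% higher and 32.3% lower. PSMB8 (-0.38 ± 0.073, SE, adjusted p = 4.86e-06), PSMB9 (-0.37 ± 0.088, SE, adjusted p = 0.000165), PSMB10 (-0.24 ± 0.080, SE, adjusted p = 0.00656) and PSME1 (-0.25 ± 0.061, SE, adjusted p = 0.000206) fell. PSME2 was not called (-0.09 ± 0.067, SE, adjusted p = 0.224). In each of the 5 genes every implantation A library lay below every normal library, where 68.8% of all genes had no overlap. PSMB10 was not called without implantation A 1 (adjusted p = 0.0531) or without normal 2 (adjusted p = 0.0547). On log2(TPM + 1), where the median of all genes was 0.10, none of the 5 was called by limma, with PSMB8 at -0.26 (adjusted p = 0.783) and PSMB9 at -0.26 (adjusted p = 0.342). At an adjusted p under 0.05 limma there called 6 members higher and 0 lower, beside 2198 and 1005 of all genes. That fit also held the defect libraries, including the shallow ones, and their part in the lost calls was not tested. By TPM, PSMB8 was at 69.3 to 74.1 in implantation A and 83.2 to 88.8 in normal. PSMB9 (44.0 to 49.8 against 55.2 to 56.6) and PSME1 (167.2 to 180.3 against 188.2 to 190.4) did not overlap either, while PSMB10 and PSME2 did. Relative to the median of all genes the 5 genes stood at -0.23 with TMM, library size alone, RLE factors and log2(TPM + 1) alike.

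The other members went both ways in implantation A against normal, 17 higher, 8 lower and 11 not called of 36, and with library size alone or RLE factors the split of all 41 was 14 and 14 or 14 and 13, beside 17 and 12. PSMD12, at 41.2, 42.7 and 42.1 CPM, rose by 0.56 ± 0.077 (SE, adjusted p = 6.6e-10), PSMC6, at 37.6, 38.8 and 42.3 CPM, by 0.50 ± 0.080 (SE, adjusted p = 8.96e-08), PSMA5 by 0.48 and PSMA3 by 0.44. PSMC3, at 97.1, 98.3 and 96.5 CPM against 131, 126 and 121 CPM in normal, fell by 0.37 (SE 0.058, adjusted p = 3.18e-08), PSMC5 by 0.35, PSMA7 by 0.32 and PSMD4 by 0.24. The alpha ring had 6 genes higher and PSMA7 lower, and the base ATPases 1 higher and 3 lower, so genes of 1 particle did not move together. PSMB7 fell by 0.27 (SE 0.065, adjusted p = 0.000257), while PSMB5 (0.04, adjusted p = 0.636) and PSMB6 (-0.06, adjusted p = 0.437, or 0.0497 at -0.14 without normal 3) were not called. PSME3 and PSME4 rose by 0.30 and 0.29 (adjusted p = 4.02e-05 and 6.29e-05). On log2(TPM + 1) PSMA3, PSME3 and PSME4 were not called. The log2 ratio of inducible to constitutive subunits was -0.85 ± 0.0301 in implantation A (SD, n = 3), 0.23 below normal and without overlap. By pair, PSMB8 over PSMB5 (-0.42) and PSMB9 over PSMB6 (-0.31) were lower without overlap, while PSMB10 over PSMB7 (0.03) overlapped. Endothelial markers fell in 7 of 7 genes (2013 to 2036 CPM in implantation A against 3496 to 3597 CPM in normal), leukocyte markers in 2 of 7 and macrophage markers in 5 of 9, where 1 rose. Fibroblast markers rose in 6 of 6 genes (70697 to 70853 CPM against 16401 to 16545 CPM), proliferation markers in 7 of 7, smooth muscle markers in 5 of 6 and epithelial markers in 4 of 5, with 1 lower in each of the last 2 lists. The part of these cell type markers in the changes was not tested.

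Over the 5 groups, set on 1 scale though the study does not compare all of them, 31 of the 41 members had their highest mean CPM in ECs+ implantation and 17 their lowest in normal. By TPM ECs+ implantation was highest in 14, so that order depends on the scale. All 5 inducible genes were highest there by CPM, and 4 of them by TPM, since PSMB10 stood at 70.6 ± 2.28 TPM in ECs+ implantation and 71.6 ± 5.01 TPM in normal (SD, n = 3). PSMB8 averaged 92.2 ± 0.886 CPM in ECs+ implantation, 48.6 ± 1.49 in normal, 37.5 ± 1.54 in implantation A, 35.0 ± 2.496 in implantation B and 27.8 ± 16.7 in defect (SD, n = 3), and the last 3 overlapped as neighbours in that order. PSME1 averaged 168 ± 3.53 CPM in ECs+ implantation, 80.2 ± 0.268 in normal, 76.4 ± 1.33 in implantation B, 69.8 ± 8.13 in defect and 67.4 ± 2.23 in implantation A (SD, n = 3), with overlap again among the last 3. PSMB9 and PSMB10 averaged 37.4 ± 1.01 and 38.5 ± 1.63 CPM in ECs+ implantation and at most 23.5 ± 4.10 and 30.9 ± 2.38 CPM in another group, defect and normal respectively (SD, n = 3). The inducible share of the TPM of the 6 catalytic genes ran from 42.7 ± 0.275% in ECs+ implantation through 37.2 ± 1.16% in normal, 33.9 ± 0.743% in implantation A and 31.5 ± 4.74% in defect to 30.5 ± 0.736% in implantation B (SD, n = 3). In counts the share rested on 12 of 45 in defect 1 and 19 of 52 in defect 2, with 95% Wilson intervals of 15.96 to 41.04% and 24.8 to 50.1%, which cover counting error only. At that depth defect could not be placed among the other groups from these 2 libraries.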

How the data were processed

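The authors deposited raw gene counts and TPM values of 15 pig libraries. Per the submitters' processing notes, the build was Sscrofa11.1 and the tools were HISAT2, HTSeq, fastp and DESeq2, without versions. How the authors made the TPM values, and whether counting used strand, are not given in the sources used here. Columns were matched to samples by title. One description line of each ECs+ implantation sample names normal 3 instead, so that group rests on titles and column names. All 43 members were matched by symbol in the RefSeq table of that build, which gave the coordinates. Sequences were not used here.

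Counts were tested with edgeR 4.0.16 in R 4.3.3 on every gene kept by filterByExpr, with TMM factors, robust glmQLFit and glmQLFTest, and Benjamini-Hochberg adjustment over all genes tested at a threshold of 0.05. Normal, defect and implantation A shared a fit of 9 libraries, and ECs+ implantation and implantation B had a fit of 6. CPM values use TMM factors over 15 libraries, while sums of marker lists use library totals. SE values come from the curvature of the fitted model. Ratios within a library got no test. No 2 libraries of a group agreed within sampling noise. Their spread ran from 1.25 (defect 1 and defect 2) to 5.81 (normal 1 and normal 3) times that noise (chi-square per degree of freedom). Intervals cover counting error only.

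Members given per library are the 5 inducible genes, their 3 counterparts, PSME3 and PSME4. In each comparison, up to 4 other members with the smallest p in each direction are named, and members not called where there were at most 8. Others were chosen after their values were seen. The members and all lists were chosen with earlier results of these data known. Alternatives were DESeq2 1.42.0, limma 3.58.1 with voom or on log2(TPM + 1 or 0.1), other scalings, filters, a replicate block, fits of other sets of libraries, thinning and leaving out libraries. The scripts were tested on simulated counts. In that test voom made many false calls where libraries differed in depth as the shallow defect libraries do. Its results are an alternative only.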

Additional observations from a re-analysis of the deposited data

How the results depend on the processing

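Of the single gene results under alternative settings, 311 in ECs+ implantation vs implantation B, 290 in implantation A vs normal, 253 in defect vs normal and 198 in implantation A vs defect kept direction and call. Another 2, 39, 48 and 54 lost the call, 5, 3, 15 and 4 gained it, and 6, 10, 17 and 36 changed sign. The cause of these changes was not tested, except that fewer reads or fewer samples were used where said. The log2 ratio of inducible to constitutive subunits kept its direction in log2 TPM and without each library. In implantation A vs defect, where the groups overlapped, it ran from 0.06 without defect 1 to 0.46 without defect 2, beside 0.29. Depth limits the defect group, which holds 1 deep library and 2 shallow ones, and adjusted p-values without defect 3 assume that these vary like the other groups.

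In ECs+ implantation vs implantation B (30 members higher, 6 lower) library size alone left 1 lower, with PSME4 at 0.014, PSMD2 at 0.022 and PSMD12 at 0.016 on the log2 scale. With a pseudocount of 1 or 0.1, log2 TPM gave 18 higher and 13 lower, and without a filter 17 and 11, with PSMB6 at -0.14 in all 3.

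In defect vs normal (22 higher, 4 lower) library size alone gave 10 and 18, with PSMB5 at -0.0083 and PSME3 at -0.051. RLE factors gave 9 lower and DESeq2 13 higher. Voom with quality weights gave 8 and 0, with PSMB9 at 0.023 and PSME2 at 0.018. Log2(TPM + 1) gave 12 and 7, log2(TPM + 0.1) 12 higher, and no filter on TPM 9 higher, with PSME2 at 0.013 in each and PSMB9 at 0.084, or 0.085 with 0.1. No filter on counts, only the 2 groups, or an adjusted p under 0.01 gave 2 lower, with PSME2 at 0.00032 without the filter. Thinning to the shallowest total, which removes reads, gave 3 and 0, with PSME1 at 0.34 and PSME3 at -0.12. Leaving out 1 library gave 2 to 23 higher and 3 to 7 lower, with 2 without defect 3 and 7 without normal 3. PSMB9 then ran from -0.047 to 0.029 and PSME2 from -0.058 to 0.040.

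In implantation A vs defect (1 higher, 21 lower) library size alone gave 11 and 2, with PSMB8 at 0.19, PSME1 at 0.13, PSME2 at 0.24, PSMB7 at 0.20 and PSME3 at 0.29. RLE factors put PSME3 at 0.051. DESeq2 gave 5 lower, with PSMB8 at 0.052 and PSME3 at 0.035. Voom gave 0 and 1, with PSMB8 at 0.24 and PSMB7 at 0.052. Log2 TPM gave 4 and 1 with a pseudocount of 1, 3 and 1 with 0.1, and 2 and 1 with no filter. PSMB8 was at 0.80, PSME1 at 0.089, PSME2 at 0.020 and PSMB7 at 0.37 there, and with 0.1 PSMB8 was at 0.82, PSME2 at 0.021 and PSMB7 at 0.38. The stricter filter put PSME3 at 0.0032, and the 2 groups alone put PSME2 at 0.020 and PSME3 at 0.075. An adjusted p under 0.01 gave 13 lower. Thinning gave 0 and 1, with PSMB8 and PSMB7 at 0.21. Leaving out 1 library gave 1 to 24 lower, with 1 without defect 3. PSMB8 then ran from -0.15 to 0.80, PSMB10 from -0.014 to 0.28, PSME1 from -0.19 to 0.015, PSMB7 from -0.15 to 0.45 and PSME3 from -0.054 to 0.027.

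In implantation A vs normal (17 higher, 12 lower) DESeq2 gave 8 higher. Log2 TPM gave 6 and 0 with either pseudocount and 5 and 0 with no filter, with PSME2 at 0.034 in each and PSMB6 at 0.077, or 0.078 with 0.1. PSMB5 was at -0.020 with library size alone, -0.018 with RLE factors and -0.019 with DESeq2, and PSMB6 ran from -0.14 to 0.0058 when 1 library was left out.

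Replicate numbers are shared between groups, but same-numbered libraries did not deviate together, with correlations of -0.037 to 0.015. With the replicate number as a block, 13 members were lower in implantation A vs defect, with PSMB10 at -0.046, and PSME2 was at 0.013 in defect vs normal.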
